A study of Drosophila melanogaster with 3 samples.

Results

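The peaks described here are the binding regions of the tagged zinc finger protein zf30C that lay inside the introns of *Drosophila melanogaster* genes at a short distance from a transcription start. A peak was included when its summit was more than 500 and at most 2000 bp from the nearest annotated start of any gene, inside a protein-coding gene and in no annotated exon. This rule took 501 of the 3567 peaks in the study's final list, or 14.0%, with an exact 95% interval of 12.9% to 15.2%. They lay in 486 regions of distinct coordinates, some of which overlapped, and in 424 host genes. Position alone chose them, and their signal played no part in the choice among the 3567.

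Chromatin immunoprecipitation with sequencing had been carried out on whole embryos of mixed sex, 0 to 24 h old, from a transgenic line whose zf30C protein carried GFP at its C-terminal end. The 3 libraries were labelled as biological replicates of 1 group, with no second condition. One free-text label describes these libraries as input control. The antibody field names zf30C, however, and the labels point to another experiment for controls, so the contradiction could not be settled and they were read as immunoprecipitated samples. Whole embryos mix every cell type and stage of embryogenesis, so a region occupied strongly in few cells and one occupied weakly in many cannot be told apart. The files list regions, summits and a signal value of unstated unit without read counts. The depth behind each region is therefore unknown, and all intervals cover counting error only. The final list had been filtered by irreproducible discovery rate (IDR), which scores how evenly a region ranks between replicates, and is called the IDR list.

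Introns close to a transcription start, the first intron above all, are known in flies as a common seat of enhancers. Many fly genes also have several promoters, so that an intron of the longer transcripts can lie just before the start of a shorter one. C2H2 zinc finger proteins, to which zf30C belongs, bind DNA through tandem fingers that each contact a few bases.

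The sequences at the 8 strongest of these summits are shown because a 5-letter core, described below, lay in some of them and not in others. Each is the Release 6 (dm6) plus strand, 5′ to 3′, 60 bp to either side of the summit, and capitals mark every match to CACTG or its reverse complement CAGTG. The coordinates are chr3R:11760996-11761116 in Lk6, chr2L:6612655-6612775 in CG11050, chr3R:23782805-23782925 in mbc, chr3L:21049665-21049785 in siz, chrX:12666550-12666670 in Tis11, chr2L:19165085-19165205 in brat, chr3R:28326795-28326915 in larp and chr3R:31222522-31222642 in CG12054.
Lk6: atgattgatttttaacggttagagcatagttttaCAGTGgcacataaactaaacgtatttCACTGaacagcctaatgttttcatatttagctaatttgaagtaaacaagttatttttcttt
CG11050: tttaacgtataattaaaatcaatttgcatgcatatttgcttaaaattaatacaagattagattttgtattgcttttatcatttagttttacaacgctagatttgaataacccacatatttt
mbc: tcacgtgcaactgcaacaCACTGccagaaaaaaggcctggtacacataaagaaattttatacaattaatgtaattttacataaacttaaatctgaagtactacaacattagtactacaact
siz: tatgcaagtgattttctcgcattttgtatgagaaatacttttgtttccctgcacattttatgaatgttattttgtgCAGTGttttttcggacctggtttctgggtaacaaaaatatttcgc
Tis11: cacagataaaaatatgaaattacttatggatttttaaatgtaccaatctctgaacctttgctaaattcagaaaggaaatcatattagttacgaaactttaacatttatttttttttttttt
brat: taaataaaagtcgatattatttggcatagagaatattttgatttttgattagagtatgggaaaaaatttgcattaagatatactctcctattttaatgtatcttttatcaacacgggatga
larp: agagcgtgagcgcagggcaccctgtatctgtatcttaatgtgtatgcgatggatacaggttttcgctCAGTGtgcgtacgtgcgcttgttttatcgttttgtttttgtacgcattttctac
CG12054: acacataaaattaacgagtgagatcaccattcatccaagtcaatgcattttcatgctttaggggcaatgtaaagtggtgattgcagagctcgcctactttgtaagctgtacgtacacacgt
Of these 8 windows, 4 held the core, with 2 matches in Lk6 and 1 each in mbc, siz and larp, and 4 held none. The strongest summits thus did not share the core.

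The strongest member lay in Lk6, which encodes a kinase of the translation initiation factor eIF4E. Its pooled signal was 9600, against a median of 354 over the 501 members, and its region ranked 2nd in each of the 3 replicate lists. The replicate signals were 4616, 2618 and 2413. The summit was 977 bp upstream of an internal Lk6 start, between alternative starts of the gene, and that start carried a promoter peak of its own. No other member came close in signal.

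The next members had similar pooled signals, 4955 in CG11050, 4955 in mbc and 4553 in siz. The gene mbc encodes a Rac exchange factor and siz an Arf exchange factor, both known for their part in the fusion of myoblasts. The mbc region, 1100 bp downstream of its start, ranked 14th, 9th and 8th in replicates 1 to 3. The siz region, 1499 bp downstream of a siz start, ranked 33rd, 12th and 6th. A further siz member in a separate region, 971 bp upstream of a siz start, had a signal of 2217 and ranked 170th, 99th and 79th. Both siz members stood lower in replicate 1 than in the other replicates. The CG11050 region, 1028 bp downstream of its start, ranked 8th, 21st and 12th. The exon-free stretch around its summit was only 140 bp long, so the region of 657 bp also covered annotated exons.

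Genes for RNA-binding regulators came next. In Tis11, whose product binds messenger RNAs and promotes their decay, the signal was 3814 and the ranks were 28, 28 and 42, and the nearest start, 1363 bp away, belonged to a non-coding RNA gene nested in Tis11. In brat, a translational repressor that limits neuroblast growth, the signal was 3287 and the ranks were 43, 37 and 72. The brat summit was 722 bp upstream of a brat start. In larp, which encodes a La-related RNA-binding protein, the signal was 2961 and the ranks were 60, 80 and 41. All of these lay among the highest 100 regions in every replicate, so their place near the top did not rest on 1 library.

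The remaining strong members covered several functions, and their ranks spread more. The chn summit, in a gene for a zinc finger protein with a part in neural development, had a signal of 2664 and ranked 184th, 57th and 27th in replicates 1 to 3. The Stat92E summit, in the gene for the transcription factor of the JAK/STAT pathway, had a signal of 2285 and ranked 91st, 125th and 213th, so that replicate 3 was the highest for chn and the lowest for Stat92E. CG12054, magu, Alh, Sulf1 and HmgZ had signals of 2674, 2559, 2523, 2429 and 2265, and their ranks ran from 68 to 155 over all replicates. The magu product is a secreted modulator of BMP signalling, Sulf1 is an enzyme that edits heparan sulfate, and HmgZ is a high mobility group protein whose summit lay 633 bp upstream of the neighbouring HmgD. None of these left the highest 213 regions of any replicate.

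**Figure D1:**
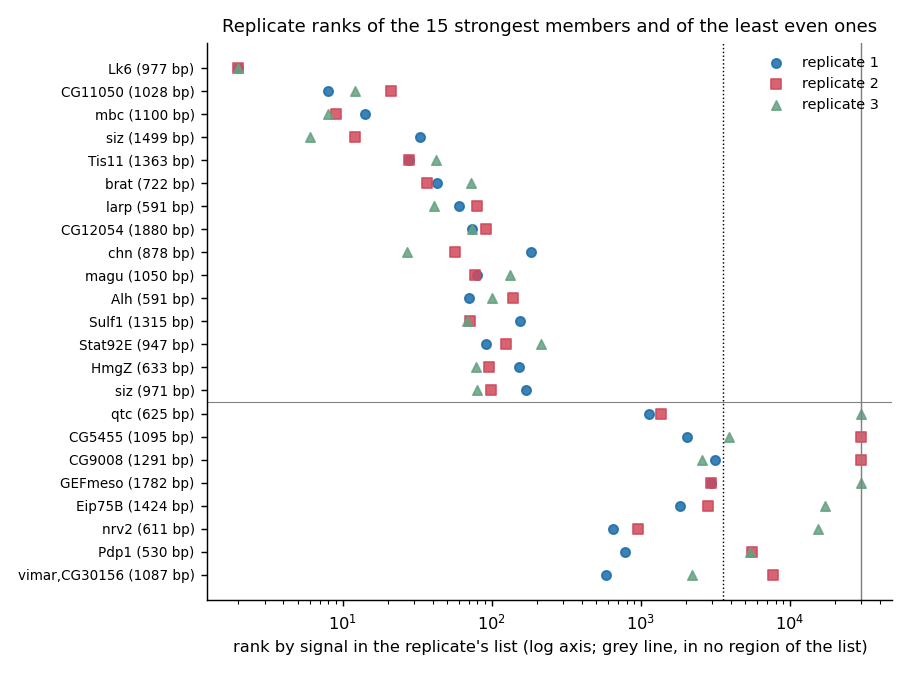
Rank of each region in the 3 replicate lists (horizontal log axis; 1 is the highest signal) for the 15 strongest members, above the grey line, and for the members with the poorest rank or the largest spread, below it, with the distance of each summit from its start in bp. The dotted line marks rank 3567, and points on the right-hand line are in no region of that list. Lk6 ranked 2nd throughout, while nrv2 and Eip75B stood at ranks 15362 and 17044 in replicate 3.

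Signal was spread widely below these. Over the 501 members it ran from 193 to 9600, with quartiles of 254 and 602. Intronic peaks more than 2000 bp from a start, 759 in number, had a median of 325, and the 1409 promoter peaks within 500 bp of a start had a median of 319. The median of the near-start peaks was the higher. Of these peaks, 40, or 7.98% (exact interval 5.76% to 10.71%), were among the 356 strongest of the IDR list. The corresponding shares were 8.83% of far intronic peaks and 12.3% of promoter peaks. The near-start interval held the far intronic share and the 9.98% of the whole list. The promoter share lay above the near-start interval, and the promoter interval of 10.68% to 14.2% overlapped it only narrowly. These differences at the top of the range were not tested.

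The replicate lists gave the same ordering against far intronic peaks and a mixed one against promoters. Each peak was given the percentile of its replicate signal among all 3567 peaks. The median percentile of near-start peaks was 55.0, 53.7 and 51.5 in replicates 1 to 3, and that of far intronic peaks was 48.5, 47.9 and 43.0. The difference was positive in 3 of 3 replicates, at 6.96 ± 1.42 percentile points (SD, n = 3). A two-sided exact sign-flip permutation test over the 3 replicates gave p = 0.25, the smallest value that 3 replicates allow. For promoters the medians were 47.7, 48.4 and 54.0. The difference from promoters was 3.36 ± 5.13 points (SD, n = 3), positive in replicates 1 and 2 and negative in replicate 3, with an exact p of 0.5 by the same test. Among the 1783 peaks of highest pooled signal the difference from far introns was -0.0187 points (exact permutation p = 1.0). Pooled signal is made from the same replicates, so that subset was chosen on a measure tied to the one compared and does not show where the difference lies.

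**Figure D2:**
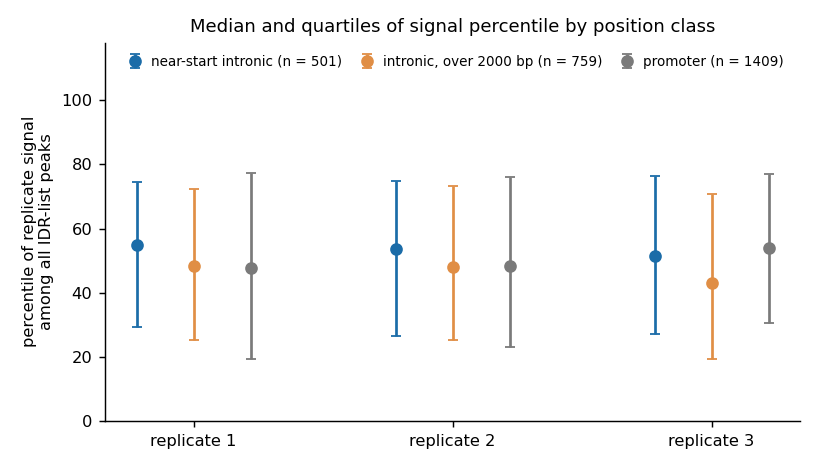
Median (points) and quartiles (bars) of the percentile of replicate signal among all 3567 peaks of the IDR list, by position class, in each replicate. Near-start intronic peaks lay above far intronic peaks in all 3 replicates, with medians of 51.5 to 55.0 against 43.0 to 48.5, but the quartiles overlapped throughout.

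Support by single replicates was close to that of the whole list. Support by a replicate meant that a region among the 3567 highest of that replicate overlapped the peak region by 1 bp or more. All 3 replicates supported 343 of the 501 members, 68.5% (exact interval 64.2% to 72.5%), against 65.3% of all IDR-list peaks. That background share lay inside the interval. Another 101 members had the support of 2 replicates and 57 of 1, and no member had none. Replicate 1 supported 460 members, replicate 2 supported 419 and replicate 3 supported 409. Support by all 3 covered 167 of the 167 strongest members, 141 of the middle 167 and 35 of the weakest 167, an order that follows from pooled signal being made from the same 3 replicates. Pairwise Spearman correlations of replicate signal across the 501 members were 0.83 for replicates 1 and 2, 0.77 for 1 and 3 and 0.80 for 2 and 3. They describe regions already chosen for high pooled signal, to which all 3 replicates contribute.

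Summit positions of each replicate were set against the members' summits. Those come from the pooled list, to which all 3 replicates contribute, so some closeness is built in. The nearest summit of the replicate's own list lay at a median of 11 bp from the member's summit in replicate 1, 14 bp in replicate 2 and 20 bp in replicate 3. A summit within 50 bp was listed for 89.6%, 82.4% and 81.0% of members in replicates 1 to 3. All 3 replicates had a summit within 20 bp for 130 members, 25.9%, and within 50 bp for 315, 62.9%. Within 100 bp this held for 443 members, 88.4%.

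A few members were carried by some of the libraries. CG5455 and CG9008 lay in no listed region of replicate 2, and qtc and GEFmeso in none of replicate 3. Eip75B, a nuclear receptor gene induced by ecdysone, ranked 1816th and 2820th in replicates 1 and 2 and 17044th in replicate 3. The widest spread was in nrv2, a gene for a beta subunit of the sodium pump, with ranks of 650, 954 and 15362 and a mean percentile of 50.2 ± 42.9 (SD, n = 3). In Pdp1, a clock transcription factor gene, the ranks were 787, 5554 and 5408, and the percentile was 29.5 ± 39.1 (SD, n = 3). One of 2 members with overlapping regions shared by vimar and CG30156 ranked 584th, 7686th and 2208th, the first being the rank of the stronger neighbour, with a percentile of 41.0 ± 38.9 (SD, n = 3). These were weak regions, with pooled signals of 196 to 298, and the median SD of percentile over all members was 8.62.

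The gene for zf30C itself held a member. Its summit was 751 bp downstream of a zf30C start, in the first intron, with a signal of 291. It shared a region of 1433 bp with the gene's own promoter summit, and that region ranked 3rd in all 3 replicates. Those ranks belong to the region and cannot be assigned to the intronic summit. Over the whole set, 36 members shared a region with another IDR-list summit, and 5 of them with a promoter summit.

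Most members lay downstream of the start to which they were nearest. There were 347 downstream, 69.3% (exact interval 65.0% to 73.3%), and 154 upstream, 30.7%. The comparison set was the 3010 other near-start intronic summits of the pooled list, which met the same position rule in regions that did not overlap the IDR list. Of those, 64.4% were downstream (62.7% to 66.1%). The interval of the members overlapped that of the lower-ranked summits at its edge, and the difference was not tested. The replicate lists gave upstream shares of 30.2%, 31.2% and 32.5% among the near-start intronic summits of their own 3567 highest, 31.3 ± 1.17% (SD, n = 3).

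Most also lay nearest to a start of their own host. This held for 422 members, 84.2% (80.7% to 87.3%), against 77.3% (75.7% to 78.8%) of the other near-start intronic summits. Of the 501 summits next in rank after the IDR list it held for 401 (76.3% to 83.5%), which overlapped the members' interval. Of the 422, 317 were downstream of that start. The other 105 were upstream of it, and so lay between alternative starts of the same gene, as in Lk6 and brat. The remaining 79 were nearest to a start of another gene. That start lay inside the host for nearly all of them, on the host's strand for 31 and on the opposite strand for 45. Among the nearest starts, 451 belonged to protein-coding genes, 40 to non-coding RNA genes, 7 to tRNA genes and 3 to snoRNA genes.

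The first intron was the usual place. For 419 members, 83.6% (80.1% to 86.8%), the summit was in the first intron of at least 1 host transcript, against 74.9% (73.3% to 76.5%) of the other near-start intronic summits. The summits next in rank gave 77.4% (73.5% to 81.0%), again overlapping. The exon-free stretch around a member had a median length of 2896 bp, and 2849 bp around the other near-start summits.

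Promoter peaks at the same gene were counted next. A promoter peak stood at the nearest start of 111 members, 22.2% (18.6% to 26.1%), and at that of 16.2% (14.9% to 17.6%) of the other near-start summits. Some start of the host carried one for 211 members, 42.1% (37.8% to 46.6%), against 35.5% (33.8% to 37.3%). Among the summits next in rank these shares were 17.4% (14.1% to 21.0%) and 35.5% (31.3% to 39.9%), and both intervals overlapped those of the members. Summits in a region that overlapped an IDR-list promoter peak could not enter either comparison set, while 5 members shared a region with a promoter summit. The part of this rule in the differences was not tested. For the larger part of the members, 290, the host gene had no promoter peak.

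Distance fell off from the inner limit. There were 236 members over 500 to 1000 bp from the start, 145 over 1000 to 1500 bp and 120 over 1500 to 2000 bp, with a median of 1044 bp. Among the other near-start intronic summits the same bins held 41.1%, 33.6% and 25.2%, against 47.1%, 28.9% and 24.0% of members. The share of the first bin was the higher in members, with an interval of 42.7% to 51.6%. It overlapped that of the other summits, 39.4% to 42.9%, only at its edge, and the difference was not tested. At the inner limit, eya lay at 504 bp and ago and ced-6 at 505 bp, with signals of 377, 1124 and 468, while apolpp at 499 bp with a signal of 586 fell just outside. At the outer limit, shf and CenG1A lay at 1997 bp with signals of 655 and 278. The next peaks beyond it were mim at 2002 bp and sim at 2020 bp, with signals of 231 and 446. Neither limit separated strong from weak peaks.

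**Figure D3:**
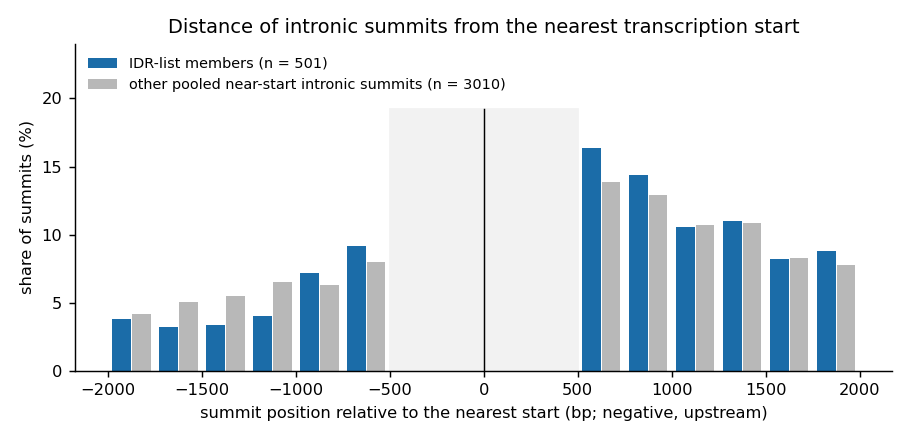
Share of summits (vertical axis, %) by signed distance to the nearest start in bins of 250 bp (horizontal axis, bp) for the 501 members and for the 3010 other near-start intronic summits of the pooled list. The grey band is the promoter zone that the rule leaves out. Both sets were heavier downstream, and 47.1% of members lay over 500 to 1000 bp away.

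Near-start intronic summits entered the IDR list at a rate between those of promoters and deep introns. The pooled list held 3645 such summits among 30000, and 501 of them, 13.7% (12.6% to 14.9%), were in the IDR list, against 11.9% of all pooled summits. The rate was 17.1% (16.3% to 17.9%) for promoter summits and 9.47% (8.83% to 10.1%) for far intronic ones. The intervals of the 3 classes did not overlap. Since the IDR list was made of exactly the 3567 highest pooled summits, these are shares past 1 level of pooled signal. Within the near-start class it was 15.4% over 500 to 1000 bp, 12.1% over 1000 to 1500 bp and 13.1% over 1500 to 2000 bp, with overlapping intervals. Membership in the replicates' own highest 3567 summits was steady, at 517, 500 and 489 near-start intronic summits, or 14.1 ± 0.395% (SD, n = 3). By arm, 77 members lay on 2L, 102 on 2R, 101 on 3L, 123 on 3R, 1 on 4 and 97 on X. The share on 2R was 20.4% (16.9% to 24.2%), with 17.7% of all IDR-list peaks there, and no arm's share in the whole list fell outside the members' interval.

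Several hosts carried more than 1 member region. There were 83 such genes, and 10 had 3 or more, with overlapping regions of different coordinates counted apart. Those with the largest summed signal were siz, brat, Tis11, Mcr, RhoGAP18B, larp, CG1677 and tkv. In siz and brat both members were strong, with a further brat member of 2086 whose nearest start was that of Polr1D. In larp and Tis11 the second member was weak, at 281 and 253. The regions of the Mcr pair, with signals of 1824 and 1600, overlapped and so shared their replicate ranks of 192, 178 and 211. RhoGAP18B held 3 members with signals of 1964, 949 and 392. CG1677, a gene 124709 bp long, held members near starts of genes nested in it. In tkv, the type I receptor for Dpp, 3 members with signals of 990, 718 and 682 lay 1103 bp upstream, 1665 bp upstream and 656 bp downstream of tkv starts. The ranks of the strongest tkv member were 535, 409 and 522. Among these named hosts, the weaker members thus ranged from near the strongest one in signal to far below it.

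Host genes were read against a background share. Of the 1799 protein-coding genes that had any pooled near-start intronic summit, 424, or 23.6%, hosted a member. A gene with more such summits had more chances to host a member, and the shares were not adjusted for this. The lists below were small and were chosen with earlier results of these data known, so their counts are descriptions.

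Signalling genes stood above that share in several lists. Of the genes with a pooled near-start summit, 9 of 16 in the EGF receptor, Ras and ETS list hosted a member, 6 of 10 in the Dpp and activin list, 4 of 6 in the JAK/STAT and JNK list and 5 of 12 in the Wingless list. In the first, edl, an inhibitor of ETS signalling, had a signal of 1505. The ETS factor gene pnt had 3 members, of 510, 387 and 211. The Dpp list held Mad, the pathway's transcription factor, at 1081 and pnr, a GATA factor gene, at 951, beside tkv. In the JAK/STAT and JNK list, Socs36E, a feedback inhibitor, had a signal of 948 and puc, a phosphatase that limits JNK activity, one of 488. Its host Ptp61F held peaks of 659 and 278 that also lay in rho and ru, hosts in the EGF receptor list. The shares of these lists are therefore not independent. The Wingless list held the kinase gene sgg at 615 and the receptor genes fz2, fz3 and fz at 520, 454 and 386. These pathways were represented at several steps, among them receptors, kinases, transcription factors and inhibitors.

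Lists for tissues and cell shape were also above it. The neural list gave 5 of 12, with grh at 512 and chinmo at 469 after brat, and the mesoderm and muscle list gave 5 of 13, with stumps, an adaptor for FGF receptors, at 1593 after mbc and the FGF receptor gene htl at 346. For actin and cell motility the count was 5 of 11, led by shot, a cytoskeletal linker, at 637. In each of these lists the leading member was supported by all 3 replicates. Every member with a signal as high as theirs had such support, and pooled signal is made from the same replicates. Their support therefore says nothing about the lists.

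The remaining lists were nearer to the background or below it. Axon guidance gave 4 of 15, and the unc-5 member of 691 shared its region with another summit. The Polycomb, Trithorax and chromatin list gave 3 of 12, with Trl, the GAGA factor gene, at 1573 and lola at 1539. Hippo and growth gave 3 of 10, ecdysone response 2 of 6, gap and pair-rule 2 of 9 and Hedgehog and segment polarity 1 of 5, where ptc had a signal of 910. At the lower end were homeodomain and Hox genes with 2 of 18, Notch with 1 of 8 and epithelial junction and polarity with 2 of 14. The 2 homeodomain hosts were Abd-B, at 1912 and ranks of 119, 158 and 336, and Ubx, at 254. The only Notch host, mam, a coactivator of the pathway, had members of 1150 and 265. Cytosolic ribosomal protein genes gave 0 of 1 and chemosensory receptors 0 of 4, counts too small to read.

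**Figure D4:**
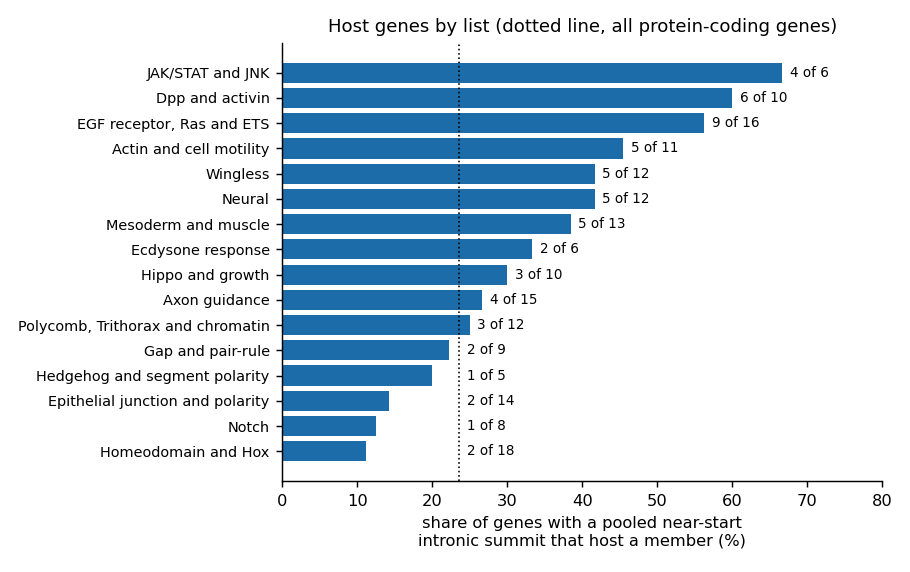
Share of the genes with a pooled near-start intronic summit that hosted a member (horizontal axis, %), for each gene list with at least 5 such genes, with the counts beside the bars. The dotted line is the 23.6% found over all 1799 protein-coding genes with such a summit. Shares ran from 2 of 18 homeodomain and Hox genes to 4 of 6 JAK/STAT and JNK genes. Lists can share members, as the JAK/STAT and JNK list does with the EGF receptor list.

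The sequence under the members was poor in G and C. Median GC content in 201 bp windows was 37.3%, against 36.8% in far intronic peaks, 39.3% in promoter peaks and 41.8% in the other near-start intronic summits. The summits next in rank had 40.3%. Motif shares below therefore compare sets of unequal base composition, and the part of composition in them was not tested.

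The core CACTG, marked in the sequences above, was concentrated at the summits. It was chosen after the windows had been searched for 6-letter words, and its shares are descriptions. It stood within 50 bp of 187 summits, 37.3% (33.1% to 41.7%), and in the flanking 100 bp of the same windows in 22.8%. Far intronic peaks gave 44.1% and 22.4%, and promoter peaks 36.9% and 23.9%. The other near-start intronic summits gave 23.1% at the centre and 18.8% in the flanks, the summits next in rank 30.1% and 24.0%, and all 30000 pooled summits 26.4% and 19.3%. A central excess was thus also present in the other classes of the IDR list, larger in far introns, and was smaller in lower-ranked summits of the same position. In the replicates' own lists the core stood within 50 bp of 36.6%, 35.2% and 35.2% of the near-start intronic summits among the highest 3567. The lower-ranked ones gave 22.7%, 21.0% and 20.8%. Flank shares were not taken by replicate, so these values compare ranks and not centre with flank. Within the members the share did not follow signal, at 67, 58 and 62 of 167 from the strongest to the weakest.

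A-rich words such as GAGAAA and GAAAAA were also centred on the members. The word GAGAAA, or its reverse complement, lay within 50 bp of 25.7% of summits and in the flanks of 14.8%, that is of 129 and 74 of the 501. In the 759 far intronic peaks the counts were 175 and 114, and in the 1409 promoter peaks 219 and 141. The other near-start intronic summits gave 11.6% and 9.77%, and those next in rank 17.6% and 10.8%. Of all 30000 pooled summits, 3612 had it at the centre and 2835 in the flanks. Like the core, it was picked from the same search. The word GAAAAA gave 35.7% and 23.6% in members, 34.3% and 25.4% in far intronic peaks and 29.5% and 21.7% in promoter peaks. GAGAG, the core bound by the GAGA factor, was held by 201 of the 501 windows of 201 bp, 40.1% (35.8% to 44.6%), on either strand. The share was 29.0% in the other near-start intronic windows, 33.9% in those next in rank, 34.0% in far intronic, 36.1% in promoter and 27.6% in all pooled windows. In the replicates' own highest summits it was 37.1%, 39.4% and 44.4%, against 27.1%, 27.2% and 29.3% in their lower-ranked ones. GAGAG and GAGAAA can overlap in part, so these words were not counted independently. In contrast to the core, GAGAG was not concentrated at the summit: 21.2% of members held it within 50 bp and 23.4% in the flanks.

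**Figure D5:**
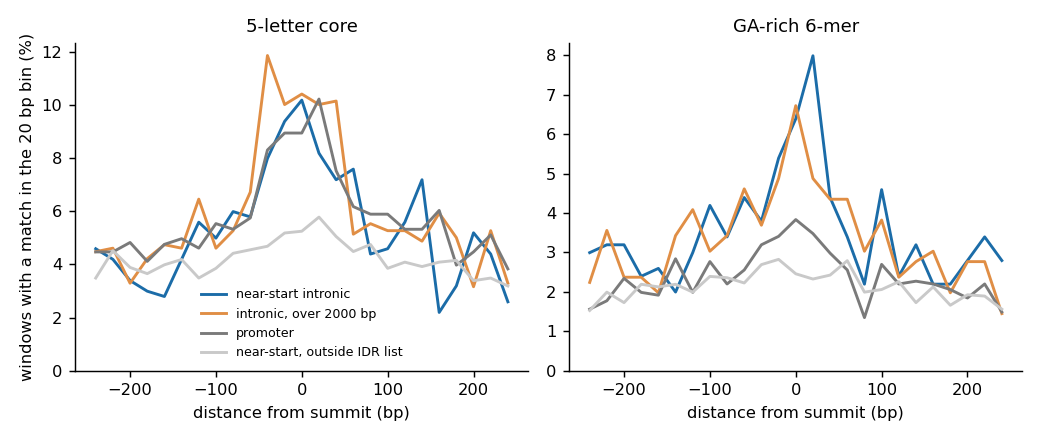
Share of windows (vertical axis, %) with a match to the CACTG core (left) or to the word GAGAAA (right) in bins of 20 bp along the distance from the summit (horizontal axis, bp), for the members, far intronic peaks, promoter peaks and the other near-start intronic summits. The core was higher at the centre than in the flanks in all 3 IDR-list classes, most in far intronic peaks, with 44.1% against 22.4%. GAGAAA was also higher at the centre in each of them.

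Motifs usual at promoters were rarer in the members than in promoter peaks. CGATA, the core of BEAF-32 sites, was in 23.4% of member windows (19.7% to 27.3%) and 32.8% of promoter windows (30.3% to 35.3%). TATCGATA, bound by DREF, was in 3 members, 0.599%, and 4.26% of promoter peaks. GGTCACAC, bound by M1BP, was in 0 of 501 members, which allows a share of up to 0.734% by the exact interval, and in 4.05% of promoter peaks. Shares over all pooled windows were 23.3%, 1.68% and 1.63%. The members thus carried these letters about as seldom as far intronic peaks, where they were in 19.4%, 0.132% and 0.395%. For the Stat92E motif TTCNNNGAA the share was 5.79%, and 5.39% over all pooled windows, and for the early embryonic activator motif CAGGTA of Zelda it was 4.39% against 4.92%.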

How the data were processed

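ChIP-seq region lists of 3 replicates, of the pooled replicates and of the IDR step were analysed. Per the labels, chromatin was sonicated to 200 to 800 bp and the assembly was dm6. The signal value of each summit and its −log10 q-value are as the authors deposited them. The −log10 q-value was the same, 3.96, for every IDR-list summit and was not used. The lists came with aligner, caller and IDR cutoff not given in the sources used here. The accompanying notes pair each replicate with a control alignment, not analysed here. The IDR list equals the 3567 highest of 30000 pooled summits, and the replicate lists also hold 30000 each, so set comparisons are within 1 ranking.

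Starts were those of all transcripts of Ensembl release 115 (BDGP6.54) except transposable elements, 23581 positions, on the 6 main arms. Release 6 sequence was read in 201 bp windows on both strands. A member's replicate rank is that of the highest region overlapping it by at least 1 bp, and its percentile is over all 3567 peaks. Peaks absent from a list were placed lowest. Intervals are exact (Clopper-Pearson) 95%. Where intervals are said to overlap, this does not show that the shares are equal, and differences between shares were not tested. With 3 replicates, which the labels call biological, the exact sign-flip test cannot go below p = 0.25. Peaks are not replicates, so no p-value is given across them.

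Named members were the 15 strongest, the 5 with the poorest replicate rank, the 3 with the largest SD of percentile, up to 8 hosts with several regions by summed signal, up to 4 members of each gene list, and those next to the limits. Sequences are of the strongest members outside arm 2R. Members, lists and rules were chosen with earlier results of these data known. Of the list symbols, 7 matched no gene. Alternatives varied the distance limits, the starts used, the part of the list, the window, the overlap and the replicates. Python 3.11.15, numpy 2.4.6, scipy 1.17.1 and pandas 2.3.3 were used, and the motif, position and overlap steps were checked on simulated data or against a direct search.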

Additional observations from a re-analysis of the deposited data

How the results depend on the processing

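Alternatives were run for 9 main results: the count of members, their share by replicate list, the upstream, own-start, support and listing shares, both percentile differences and the GAGAG share. Of their alternative values, 48 stayed close to the main one (for the count of members, within 1.5 times it; for the percentile differences, of the same sign; for shares, within the interval or SD), 12 moved further and 1 changed sign. The count of members was 621 with a lower limit of 300 bp, and 381 and 673 with upper limits of 1500 and 3000 bp. A lower limit of 300 bp raised the upstream share to 35.6%. Protein-coding starts only raised the own-start share to 93.5%, and adding transposable element starts, chosen after seeing the data, lowered it to 80.7%. In the 1783 peaks of highest signal there were 271 members, support by all 3 replicates was 99.6%, the listed share of pooled near-start summits was 7.43% and the difference from far intronic peaks was -0.0187 percentile points (exact permutation p = 1.0). Windows of 50 bp on each side lowered the GAGAG share to 21.2%. For the other 17 motifs, 100 alternative values stayed within the interval of the main share and 19 moved. Of those named above, CGATA moved to 18.8% in the peaks of highest signal, and in the shorter windows CGATA, TTCNNNGAA and CAGGTA moved to 13.4%, 2.00% and 1.20%. Support was 41.1% with 0.5 times as many regions per replicate, 91.6% with 2 times as many and 55.3% with an overlap of at least 0.5 of the peak region. Without 1 replicate, support by the others was 72.1% to 77.6%, the difference from far introns 6.17 to 7.55 points and that from promoters 1.40 to 6.27. Fewer regions, shorter windows and fewer replicates change these shares by construction; the cause of the sign change was not tested. No paired analysis was possible because there was 1 group and no second one to pair it with; the sign-flip tests compare classes of peaks within each replicate. Signal values of unknown depth limit all comparisons between single regions.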
